A study of Homo sapiens with 12 samples.

Results

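The endoplasmic reticulum (ER) is where secreted and membrane proteins fold, and the genes described here encode its chaperones, its folding enzymes and the machinery that removes proteins that fail to fold, called ER-associated degradation (ERAD). The set was a list of 35 gene symbols, and a member counted as measured where an array probe set carried that symbol and no other. By this rule 34 of the 35 genes were measured, among 18417 genes tested in all. PDIA3, a glycoprotein disulphide isomerase, was left out because both of its probe sets (2) also carried the symbol of its pseudogene. The members fell into 9 roles, from chaperones and co-chaperones to stress sensors and degradation factors.

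As background, unfolded protein in the ER is sensed by 3 membrane proteins, IRE1 (gene ERN1), PERK (gene EIF2AK3) and ATF6, which BiP (gene HSPA5) holds inactive when folding is in balance. IRE1 splices XBP1 mRNA so that it encodes an active transcription factor, PERK slows translation and favours ATF4 synthesis, and ATF6 is cut at the Golgi to release a transcription factor. Together these arms raise chaperones, disulphide isomerases and ERAD factors. Sebocytes make sebum, a lipid secretion whose enzymes work largely at the ER membrane.

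The cells were SZ95 sebocytes, an immortalised human line derived from the sebaceous gland, so all groups share 1 line and its immortalisation. RNA was measured on 12 whole-transcript microarrays in 4 groups of 3 replicates each. The groups were OLR1 siRNA with UV-PAPC, scramble siRNA with UV-PAPC, OLR1 siRNA untreated, and scramble siRNA untreated. All cells were transfected by lipofection in Sebomed medium, and 24 h later the treated groups received 25 µg/ml of UV-PAPC, the phospholipid PAPC oxidised by ultraviolet light. OLR1 encodes LOX-1, a scavenger receptor for oxidised lipoprotein, and the siRNA lowers its mRNA. No group with vehicle, unoxidised PAPC or no transfection is named in the labels, so an effect of oxidation cannot be told apart from an effect of the lipid or its vehicle. Scramble siRNA served as the control for OLR1 siRNA, and with a single named OLR1 siRNA an effect of losing OLR1 cannot be told apart from an off-target effect of that siRNA.

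Array medians over the tested genes lay between 6.31 and 6.36 log2 units, and Pearson's r across genes, which are not independent replicates, was 0.996 to 0.998 within groups and 0.988 to 0.995 between groups. OLR1 itself had log2 signals of 4.47, 4.33 and 4.41 with OLR1 siRNA and UV-PAPC, against 6.19, 5.49 and 5.74 with scramble siRNA and UV-PAPC. In untreated cells it had 4.66, 4.38 and 4.48 with OLR1 siRNA, against 6.18, 5.56 and 5.35 with scramble siRNA. Of 12 sebocyte and epithelial markers, PPARG fell with UV-PAPC in both backgrounds (log2 fold change -0.35 with OLR1 siRNA and -0.47 with scramble siRNA), CDH1 fell in scramble cells (-0.24) and MUC1 in OLR1 siRNA cells (-0.34), and the mean level of the list stayed between 9.19 and 9.33. Mean levels were 4.62 to 4.72 for 8 fibroblast markers, 5.06 to 5.20 for 6 melanocyte markers, 5.35 to 5.46 for 6 leukocyte markers and 5.18 to 5.32 for 6 endothelial markers. With OLR1 siRNA, 1 marker each of the endothelial (CDH5, 0.50 in UV-PAPC cells and 0.65 untreated), leukocyte (CD68, 0.44 and 0.40) and melanocyte lists (MITF, 0.43 and 0.26) passed as higher, and 0 fibroblast markers passed. In UV-PAPC cells 5 of 6 melanocyte (median -0.23), 5 of 6 endothelial (median -0.05), 3 of 6 leukocyte (median -0.03) and 6 of 8 fibroblast markers (median -0.09) had negative values. Untreated, 2 of 6 melanocyte (median 0.02), 4 of 6 endothelial (median -0.07), 2 of 6 leukocyte (median 0.02) and 2 of 8 fibroblast markers (median 0.02) were negative. MITF also fell with UV-PAPC in scramble cells (-0.23). The part of these markers in the results below was not tested. In bulk RNA, fewer cells of a type and less RNA per cell cannot be told apart.

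Many members are known targets of ATF6 and XBP1 through short promoter elements, so the 250 bases before the start of 6 members on which the results turn are printed first, from RefSeq on GRCh38.p14. HERPUD1 and DNAJB9 are the members that UV-PAPC raised, HSPA5 is the standard reporter of ER stress, and HYOU1, CRELD2 and SDF2L1 are chaperone genes that were lower with OLR1 siRNA. Each sequence runs 5′ to 3′ on the gene's own strand and ends just before the start. HERPUD1 lies at chr16:56931892-56932141 (plus strand), DNAJB9 at chr7:108569624-108569873 (plus), HSPA5 at chr9:125241344-125241593 (minus), HYOU1 at chr11:119057206-119057455 (minus), CRELD2 at chr22:49918384-49918633 (plus) and SDF2L1 at chr22:21642052-21642301 (plus). Capitals mark matches to the ER stress element ERSE (CCAAT, 9 bases of any kind, CCACG), its shorter form ERSE-II (ATTGG, any base, CCACG) and the UPRE core (TGACGTGG), on either strand.
HERPUD1: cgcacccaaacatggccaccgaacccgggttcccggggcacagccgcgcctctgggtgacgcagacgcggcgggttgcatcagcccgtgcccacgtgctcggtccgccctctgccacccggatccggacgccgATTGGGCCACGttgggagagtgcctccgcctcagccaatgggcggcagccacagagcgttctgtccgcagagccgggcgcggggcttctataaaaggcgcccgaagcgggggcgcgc
DNAJB9: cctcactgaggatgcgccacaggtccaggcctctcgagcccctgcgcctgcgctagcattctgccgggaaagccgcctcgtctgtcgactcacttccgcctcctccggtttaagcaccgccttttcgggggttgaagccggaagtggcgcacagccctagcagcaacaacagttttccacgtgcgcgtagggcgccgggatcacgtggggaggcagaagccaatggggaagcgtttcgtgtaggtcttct
HSPA5: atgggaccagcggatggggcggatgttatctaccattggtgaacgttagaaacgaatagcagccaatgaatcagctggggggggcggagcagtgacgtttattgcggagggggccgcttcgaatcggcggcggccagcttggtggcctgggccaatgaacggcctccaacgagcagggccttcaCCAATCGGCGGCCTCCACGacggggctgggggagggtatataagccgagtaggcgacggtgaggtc
HYOU1: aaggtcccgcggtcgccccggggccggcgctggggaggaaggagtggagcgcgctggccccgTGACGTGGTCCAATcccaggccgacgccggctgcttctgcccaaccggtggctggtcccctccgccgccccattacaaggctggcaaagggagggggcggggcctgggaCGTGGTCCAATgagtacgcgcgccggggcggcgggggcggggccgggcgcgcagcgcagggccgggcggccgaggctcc
CRELD2: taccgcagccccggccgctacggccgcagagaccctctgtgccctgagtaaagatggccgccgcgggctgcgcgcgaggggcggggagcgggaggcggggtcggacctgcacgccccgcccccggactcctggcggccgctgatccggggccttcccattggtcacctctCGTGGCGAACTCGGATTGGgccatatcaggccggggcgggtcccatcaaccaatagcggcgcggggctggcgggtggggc
SDF2L1: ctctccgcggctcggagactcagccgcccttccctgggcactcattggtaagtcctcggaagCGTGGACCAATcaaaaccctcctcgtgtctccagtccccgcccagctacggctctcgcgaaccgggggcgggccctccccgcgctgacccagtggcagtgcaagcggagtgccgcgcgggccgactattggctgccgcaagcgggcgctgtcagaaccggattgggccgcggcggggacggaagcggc

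A promoter window, 250 bases before to 50 after the start, was on hand for 31 members and for 27303 genes in all. ERSE matched in 8 of the 31 members (25.8%), against 25 of all genes (0.0916%), and the 8 were HSPA5, HSP90B1, CALR, CANX, PDIA6, ERO1B, CRELD2 and XBP1. ERSE-II matched in 3 members (9.68%), HYOU1, SDF2L1 and HERPUD1, against 19 of all genes (0.0696%). The HSPA5 match lay at -66 to -48 from the start, the HERPUD1 match at -117 to -107, and HYOU1 held ERSE-II at -185 to -175 and at -79 to -69. The UPRE core matched in 2 members (6.45%, against 0.927% of all genes), HYOU1, where it overlaps the first ERSE-II, and DNAJC10. HERPUD1 was the member with the ATF4 composite core (TGATGCAA), at -176 to -169 on the opposite strand and in lower case above (3.23% of members, against 1.08% of all genes). The antioxidant response core (TGAC, 3 bases of any kind, GC) matched in 7 members (22.6%, against 16.1% of all genes). The heat shock element (GAA, TTC, GAA or TTC, GAA, TTC, with 2 bases between the triplets) matched in 0 members, against 0.608% of all genes. The DNAJB9 window held no match to ERSE, ERSE-II or the UPRE core. A match of letters is a description of the window and not a measured binding site. Just exact matches were counted, so a window with a near match counts as having none.

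UV-PAPC raised 2 of the 34 members, the ERAD factor HERPUD1 and the BiP co-chaperone DNAJB9, and it did so with either siRNA. The classical chaperones, the disulphide isomerases, the translocon genes and the 3 stress sensors did not pass the test. In OLR1 siRNA cells UV-PAPC changed 6.71% of all genes (3.46% higher), and in scramble cells 7.31% (2.67% higher), so the members' shares of 2 in 34 lay near that background. A member was called where its limma p-value, adjusted by the Benjamini-Hochberg method over all 18417 genes, was under 0.05. The median member log2 fold change was 0.04 in OLR1 siRNA cells (23 positive and 11 negative), against -0.01 over all genes, and 0.01 in scramble cells (19 positive and 15 negative), against 0.00 over all genes.

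HERPUD1 encodes an ER membrane protein with a ubiquitin-like domain that takes part in the HRD1 ubiquitin ligase complex and is itself a known target of ER stress. Its log2 signals with UV-PAPC were 8.92, 8.92 and 8.74 with OLR1 siRNA and 9.49, 9.57 and 9.30 with scramble siRNA. Untreated, they were 8.35, 8.29 and 8.29 with OLR1 siRNA and 8.65, 8.55 and 8.57 with scramble siRNA. No pair of the 4 groups overlapped, with the scramble UV-PAPC arrays highest and the untreated OLR1 siRNA arrays lowest. HERPUD1 rose 1.47-fold in OLR1 siRNA cells (log2 fold change 0.55, 95% interval 0.39 to 0.72, limma adjusted p = 0.000277), at rank 147 among all genes by fold change. In scramble cells it rose 1.82-fold (0.86, 95% interval 0.70 to 1.03, limma adjusted p = 3.32e-06), which placed it at rank 34 among all genes by fold change. It kept its call in both backgrounds in all 21 alternatives run, with log2 fold changes of 0.52 to 0.61 in OLR1 siRNA cells and 0.80 to 0.94 in scramble cells.

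DNAJB9, also called ERdj4, brings BiP to misfolded clients and to IRE1. Its log2 signals in OLR1 siRNA cells were 6.59, 6.21 and 6.004 with UV-PAPC, against 5.73, 5.92 and 5.82 untreated. In scramble cells they were 6.30, 6.38 and 6.09 with UV-PAPC, against 5.81, 5.77 and 5.71 untreated. In each background every treated array lay above every untreated array, and the treated OLR1 siRNA arrays were the most spread (SD 0.30, n = 3). DNAJB9 rose 1.36-fold in OLR1 siRNA cells (log2 fold change 0.44, 95% interval 0.20 to 0.69, limma adjusted p = 0.0306) and 1.41-fold in scramble cells (0.49, 0.25 to 0.74, adjusted p = 0.0151). Single arrays decide these calls. In OLR1 siRNA cells the call was lost without untreated replicate 1 or 3 or UV-PAPC replicate 1 or 2 (log2 fold change down to 0.28, adjusted p up to 0.131), and in scramble cells without untreated replicate 3 or UV-PAPC replicate 1 or 2 (down to 0.43, adjusted p up to 0.0676).

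**Figure D1:**
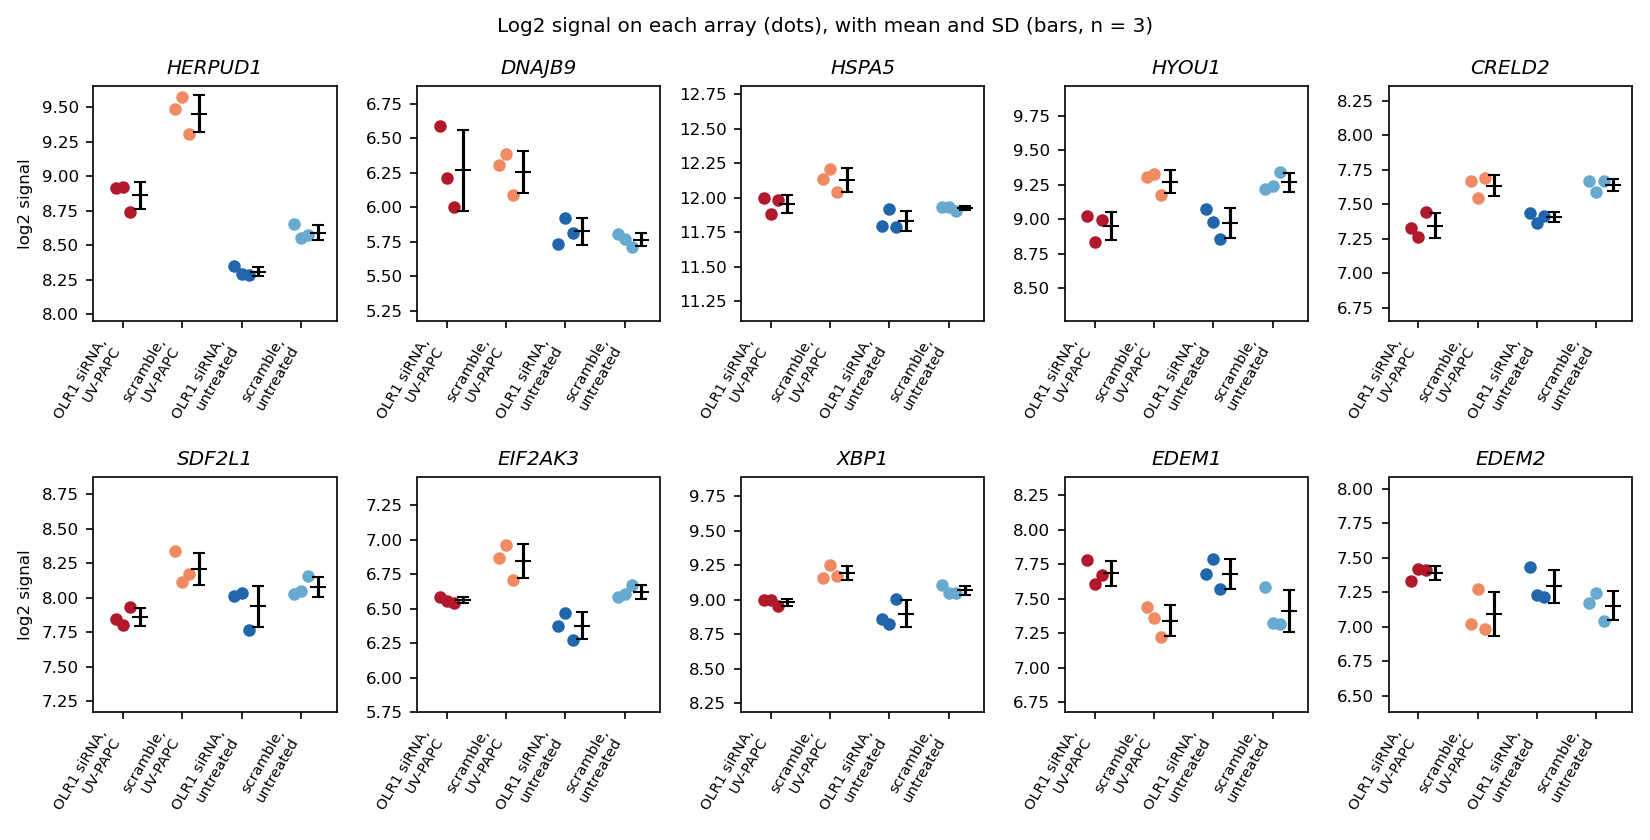
Log2 signal of 10 members on each of the 12 arrays (dots), with the mean and SD of the 3 arrays of a group (bars); the groups run from OLR1 siRNA with UV-PAPC on the left to scramble untreated on the right, and every panel spans the same number of log2 units. HERPUD1 lay at 9.30 to 9.57 in scramble UV-PAPC arrays and at 8.55 to 8.65 in scramble untreated arrays, while HSPA5 lay at 12.04 to 12.21 and 11.91 to 11.94 in the same groups.

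Among the chaperones of the Hsp70, Hsp90 and Hsp110 classes, none passed with UV-PAPC. HSPA5 encodes BiP, the Hsp70 chaperone of the ER. Its log2 signals in OLR1 siRNA cells were 11.998, 11.88 and 11.98 with UV-PAPC, against 11.79, 11.92 and 11.78 untreated, and these overlapped. In scramble cells they were 12.13, 12.21 and 12.04 with UV-PAPC, against 11.94, 11.93 and 11.91 untreated, with each treated array above each untreated array. The log2 fold change of HSPA5 was 0.12 in OLR1 siRNA cells (95% interval -0.02 to 0.27, limma adjusted p = 0.373) and 0.20 in scramble cells (0.06 to 0.35, adjusted p = 0.0930). HSPA5 passed in scramble cells under 4 of 21 alternatives (trend and robust eBayes, array weights, genes above the median signal and cyclic loess), where its value stayed within the range of 0.16 to 0.25 seen over all 21.

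HSP90B1 encodes GRP94, the Hsp90 chaperone of the ER. Its log2 signals with UV-PAPC were 12.36, 12.34 and 12.34 with OLR1 siRNA and 12.43, 12.47 and 12.31 with scramble siRNA. Untreated, they were 12.35, 12.33 and 12.35 with OLR1 siRNA and 12.42, 12.34 and 12.38 with scramble siRNA. Treated and untreated arrays overlapped in both backgrounds. Its log2 fold change was 0.00 in OLR1 siRNA cells (95% interval -0.13 to 0.14) and 0.02 in scramble cells (-0.11 to 0.16). HYOU1, the Hsp110-class exchange factor of BiP, stood at -0.02 in OLR1 siRNA cells and 0.01 in scramble cells.

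The remaining J-domain proteins did not pass with UV-PAPC. DNAJB11, which delivers clients to BiP, had log2 fold changes of 0.11 in OLR1 siRNA cells and 0.05 in scramble cells. DNAJC3, known as p58IPK, stood at 0.11 and -0.06 in the same order, and DNAJC10, a reductase of disulphide bonds, at -0.12 and -0.19. The lectin chaperones that hold glycoproteins did not pass, with CALR at 0.01 in OLR1 siRNA cells and -0.04 in scramble cells and CANX at 0.08 and 0.04. Among the disulphide isomerases and their oxidase, PDIA4, PDIA6 and P4HB lay between -0.11 and 0.05 in both backgrounds, and ERO1B was at 0.09 in OLR1 siRNA cells and 0.19 in scramble cells (adjusted p = 0.126).

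The proteins associated with BiP or secreted under stress did not pass either. SDF2L1, a partner of BiP and DNAJB11, had log2 fold changes of -0.08 in OLR1 siRNA cells and 0.13 in scramble cells. MANF, a BiP-binding factor that cells can secrete, was at 0.04 and 0.08, and CRELD2, a stress-inducible ER protein, at -0.06 and -0.01. Of the translocon and export genes, SEC61A1 and SEC61B, which form the channel into the ER, lay between -0.07 and 0.07. SSR1, a translocon-associated protein, was at -0.09 in OLR1 siRNA cells and -0.23 in scramble cells (adjusted p = 0.123), and SEC24D, a cargo adaptor of export vesicles, at 0.10 and 0.11. WFS1, a membrane protein of ER calcium balance, stood at 0.13 and 0.10.

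The sensors were read at the level of their mRNA, which does not show whether the proteins were active. EIF2AK3, which encodes PERK, had log2 signals in OLR1 siRNA cells of 6.58, 6.56 and 6.54 with UV-PAPC, against 6.38, 6.47 and 6.28 untreated. In scramble cells it had 6.86, 6.96 and 6.71 with UV-PAPC, against 6.58, 6.60 and 6.67 untreated. In both backgrounds the treated arrays lay above the untreated arrays, yet the gene did not pass (log2 fold change 0.19, adjusted p = 0.181, with OLR1 siRNA, and 0.22, adjusted p = 0.0885, with scramble siRNA). In scramble cells it passed in 4 of 21 alternatives, array weights, genes above the median signal, repeated quantile normalization and without scramble UV-PAPC replicate 3 (0.17 to 0.29 over all 21).

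ERN1, which encodes IRE1, had signals of 6.77, 6.83 and 6.78 with OLR1 siRNA and UV-PAPC, 6.85, 6.84 and 6.92 with scramble siRNA and UV-PAPC, 6.81, 6.78 and 6.82 with OLR1 siRNA untreated, and 6.76, 6.82 and 6.81 with scramble siRNA untreated. ATF6 had 8.74, 8.72 and 8.69, then 8.62, 8.66 and 8.53, then 8.83, 8.77 and 8.61, then 8.74, 8.62 and 8.68 in the same order of groups. The log2 fold change with UV-PAPC was -0.01 for ERN1 in OLR1 siRNA cells and 0.07 in scramble cells, and -0.02 and -0.08 for ATF6. XBP1, the transcription factor downstream of IRE1, had 8.99, 8.99 and 8.95 with OLR1 siRNA and UV-PAPC, 9.16, 9.25 and 9.17 with scramble siRNA and UV-PAPC, 8.86, 8.82 and 9.01 with OLR1 siRNA untreated, and 9.11, 9.05 and 9.05 with scramble siRNA untreated. Its log2 fold change with UV-PAPC was 0.08 in OLR1 siRNA cells (adjusted p = 0.574) and 0.13 in scramble cells (adjusted p = 0.330). XBP1 was read from a single probe set, so its spliced form was not told apart from the unspliced form. CREB3L2, a membrane-bound transcription factor of secretory cells, was at -0.15 and -0.17.

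In ERAD, HERPUD1 was the 1 member of 8 past the threshold with UV-PAPC. EDEM1 and EDEM2, which trim mannose from misfolded glycoproteins, had log2 fold changes with UV-PAPC of 0.01 and 0.10 in OLR1 siRNA cells and -0.07 and -0.06 in scramble cells. SYVN1 (the ubiquitin ligase HRD1) and its partner SEL1L lay between -0.08 and 0.04 over both backgrounds. The derlins, membrane proteins of the retrotranslocation site, lay between -0.03 and 0.11 in OLR1 siRNA cells and between -0.16 and 0.03 in scramble cells. The 95% intervals, which were not adjusted for the number of genes, lay within 0.5 log2 units of 0 for all 32 members that did not pass, in each background. Standard errors of the members ran from 0.060 to 0.117 log2 units.

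**Figure D2:**
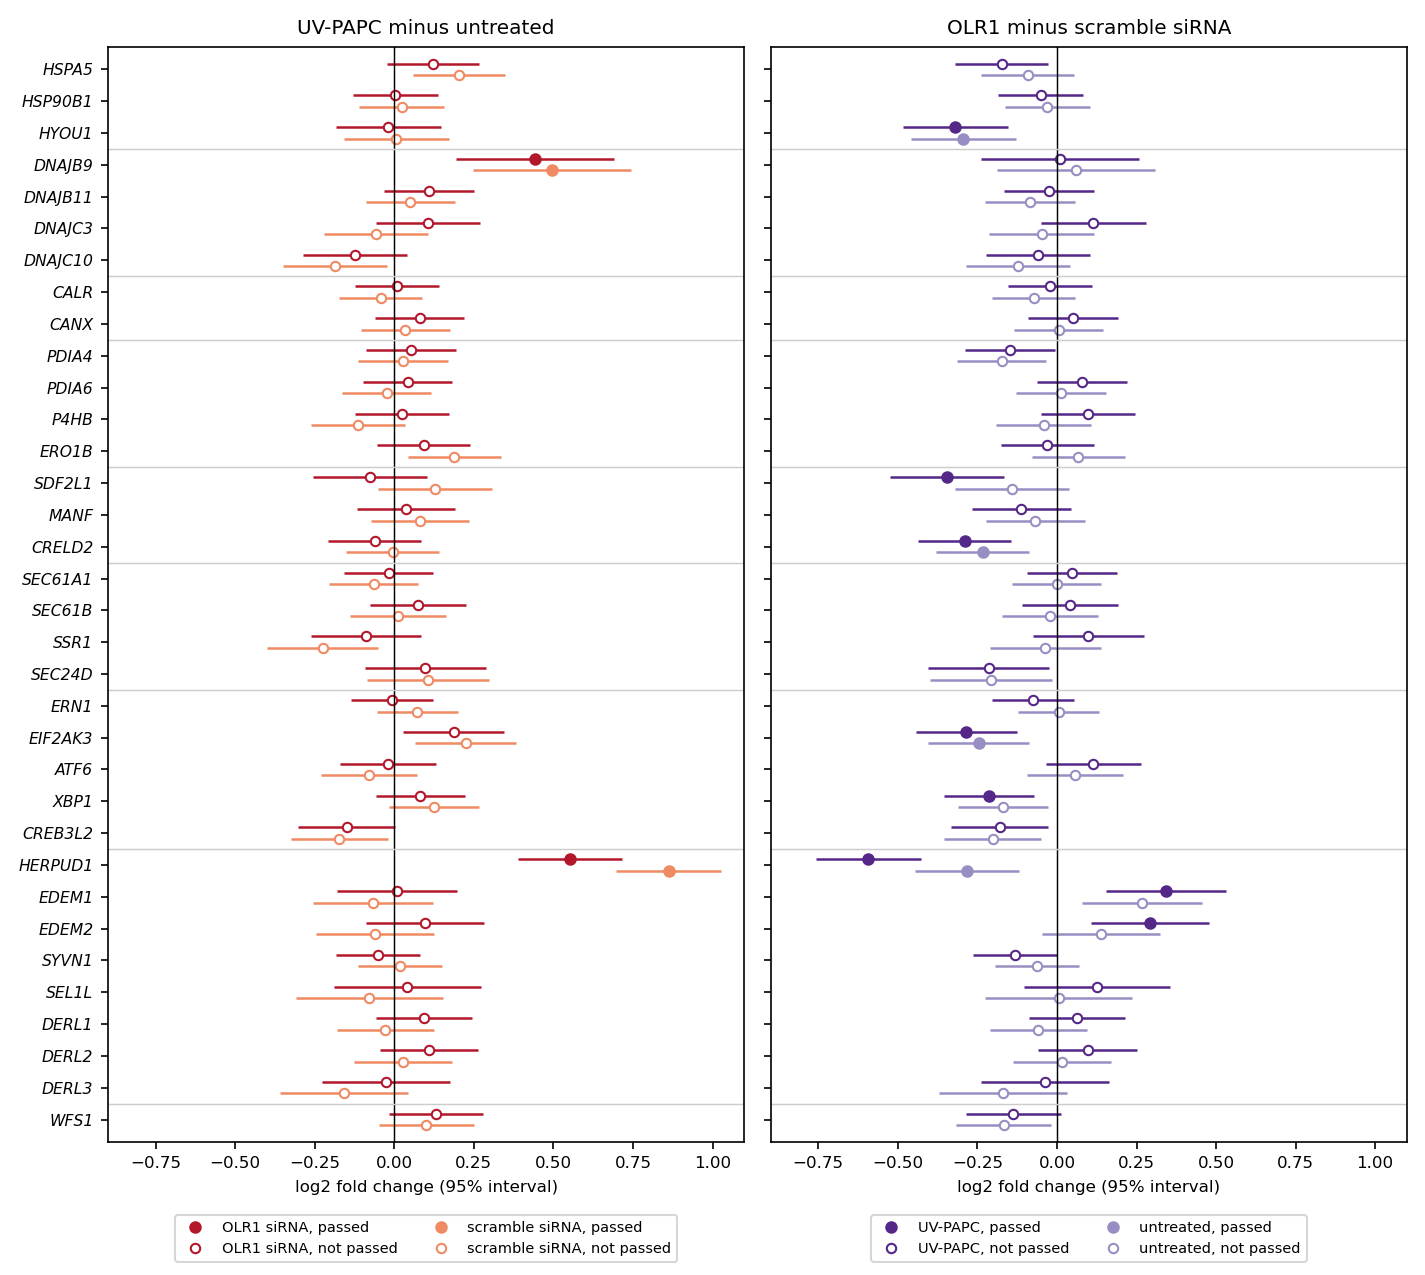
Log2 fold change (x axis) with its 95% interval for each of the 34 measured members, grouped by role from top to bottom; the left panel gives UV-PAPC minus untreated and the right panel OLR1 minus scramble siRNA, with filled circles for an adjusted p under 0.05. In the left panel HERPUD1 (0.55 and 0.86) and DNAJB9 (0.44 and 0.49) stand to the right of 0, while the right panel shows HERPUD1 lowest in UV-PAPC cells (-0.59).

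The UV-PAPC contrasts in the OLR1 siRNA and the scramble cells share no array. Over the 34 members, 22 had the same sign in both, which is 64.7% of them against 64.1% of all genes, and Pearson's r of the log2 fold changes was 0.881 for the members and 0.707 for all genes. The points of each correlation share the same arrays, so their errors are not independent. The members' r rests in part on HERPUD1 and DNAJB9, which stand apart from the other members in both contrasts. It was not computed without them.

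A further 106 genes of ER folding, export and degradation were listed, of which 99 were measured. With UV-PAPC 6 of them rose in OLR1 siRNA cells (median 0.00) and 1 in scramble cells (median -0.04), and none fell. These are 6.06% and 1.01% of the list, against 3.46% and 2.67% higher over all genes. The gene that rose in both was SERPINH1, the collagen chaperone Hsp47 (0.82 in OLR1 siRNA cells and 0.96 in scramble cells). The others in OLR1 siRNA cells were HSPA13, an Hsp70-like ER protein (0.57), the ERAD genes UBXN4 (0.35), SELENOK (0.34) and UFD1 (0.32), and VCP (0.25), the ATPase that extracts ERAD clients. ERO1A, the main disulphide oxidase, was at -0.03 in OLR1 siRNA cells and -0.20 in scramble cells (adjusted p = 0.234). None of 25 translocation and glycosylation genes and none of 16 vesicle genes passed in either background.

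Lists of other branches of the protein stress response were counted in the same arrays. Of 24 measured genes of the cytosolic heat shock response, 23 rose with UV-PAPC in OLR1 siRNA cells (median 0.76) and 23 in scramble cells (median 0.58), led by HSPA6, a stress-inducible Hsp70 (4.40 and 4.20), and DNAJB1, an Hsp40 (2.35 and 2.31), with ZFAND2A between them (2.69 and 2.88). The list for the ATF4 integrated stress response held 33 genes, ATF4 itself among them. Of these, 4 rose in OLR1 siRNA cells (median 0.04) and 9 in scramble cells (median 0.13), with SLC7A11 the highest (2.58 and 2.20). DDIT3, the stress transcription factor CHOP, was at 0.33 in OLR1 siRNA cells (adjusted p = 0.0853) and rose in scramble cells (0.68). PPP1R15A, which restores translation after PERK signalling, rose in both (0.52 and 0.48). ATF4 mRNA itself was at 0.19 in OLR1 siRNA cells (adjusted p = 0.114) and 0.13 in scramble cells (adjusted p = 0.313), and ATF4 is controlled largely at translation, which arrays do not read. The difference between these lists was not tested.

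**Figure D3:**
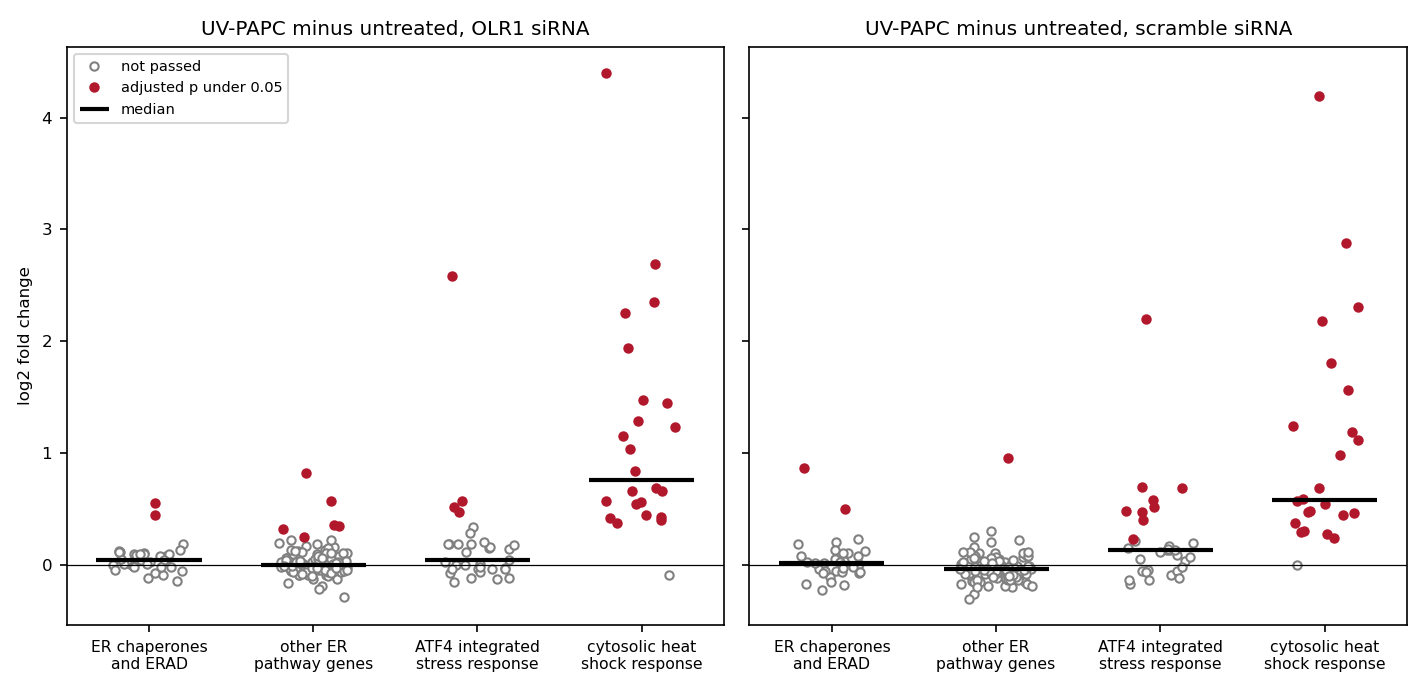
Log2 fold change with UV-PAPC (y axis) of each measured gene in 4 lists, in OLR1 siRNA cells (left) and scramble cells (right); filled points passed an adjusted p of 0.05 and bars are list medians. The ER members have medians of 0.04 and 0.01 with 2 filled points in each panel, while 23 of 24 cytosolic heat shock genes are filled in each.

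OLR1 siRNA lowered 4 of the same members with and without UV-PAPC. In UV-PAPC cells 6 members fell (HERPUD1, SDF2L1, HYOU1, CRELD2, EIF2AK3 and XBP1) and 2 rose (EDEM1 and EDEM2). In untreated cells 4 fell (HYOU1, HERPUD1, EIF2AK3 and CRELD2) and none rose, and all 4 were among the 6. Over all genes, OLR1 siRNA changed 12.5% in UV-PAPC cells (4.56% lower and 7.94% higher) and 9.71% in untreated cells (4.42% lower and 5.29% higher). The members' shares were 23.5% in UV-PAPC cells (17.6% lower and 5.88% higher) and 11.8% in untreated cells, all of it lower.

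The 4 calls in untreated cells rest on few arrays. Leaving out scramble untreated replicate 2 or 3, or OLR1 siRNA untreated replicate 3, left 0 members past the threshold. Without OLR1 siRNA untreated replicate 1 the 1 member left was HYOU1, and without replicate 2 it was EIF2AK3. Without scramble UV-PAPC replicate 1, HYOU1 and HERPUD1 passed. Without scramble untreated replicate 1, HYOU1 was the 1 left of the 4, and EDEM1 passed in addition, as higher. In UV-PAPC cells the count was 4 without replicate 1 of either siRNA and 5 without scramble replicate 3 or OLR1 siRNA replicate 2 or 3. As deposited, the split in UV-PAPC cells was 2 higher and 6 lower, against 1 higher and 10 lower after repeated quantile normalization and 2 higher and 12 lower after cyclic loess.

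HERPUD1 showed the largest difference among the members in UV-PAPC cells. The OLR1 siRNA arrays given above (8.74 to 8.92) all lay below the scramble arrays (9.30 to 9.57), a 1.51-fold fall (log2 fold change -0.59, 95% interval -0.76 to -0.43, limma adjusted p = 0.000188). It kept this call in all 21 alternatives (-0.69 to -0.53). In untreated cells HERPUD1 fell by 0.28 on the log2 scale (8.29 to 8.35 with OLR1 siRNA, against 8.55 to 8.65 with scramble siRNA, adjusted p = 0.0297), and that call was lost in 6 of 21 alternatives, each of them without an untreated array of the comparison (adjusted p up to 0.0993).

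HYOU1, the exchange factor of BiP, had log2 signals with UV-PAPC of 9.02, 8.84 and 8.997 with OLR1 siRNA, against 9.31, 9.33 and 9.18 with scramble siRNA. Untreated, it had 9.08, 8.98 and 8.86 with OLR1 siRNA, against 9.22, 9.24 and 9.34 with scramble siRNA. All OLR1 siRNA arrays lay below the scramble arrays in both treatments. With OLR1 siRNA, HYOU1 was 1.25-fold lower in UV-PAPC cells (log2 fold change -0.32, 95% interval -0.48 to -0.16, limma adjusted p = 0.0136). In untreated cells it was 1.23-fold lower with OLR1 siRNA (-0.29, -0.46 to -0.13, limma adjusted p = 0.0240). The first call was lost without OLR1 siRNA UV-PAPC replicate 2 (adjusted p = 0.0510), and the call in untreated cells without untreated replicate 2 or 3 of either siRNA (adjusted p up to 0.102).

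SDF2L1 had 7.85, 7.80 and 7.94 with OLR1 siRNA and UV-PAPC, against 8.34, 8.11 and 8.17 with scramble siRNA and UV-PAPC. Untreated, it had 8.02, 8.03 and 7.77 with OLR1 siRNA, against 8.03, 8.05 and 8.16 with scramble siRNA. The groups stood apart with UV-PAPC, and overlapped untreated. With OLR1 siRNA, SDF2L1 was 1.27-fold lower in UV-PAPC cells (-0.34, 95% interval -0.52 to -0.17, limma adjusted p = 0.0140). That call was lost without scramble UV-PAPC replicate 1 (adjusted p = 0.0670). In untreated cells SDF2L1 was at -0.14 (adjusted p = 0.349).

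CRELD2 had 7.33, 7.27 and 7.44 with OLR1 siRNA and UV-PAPC, against 7.67, 7.55 and 7.69 with scramble siRNA and UV-PAPC. Untreated, it had 7.44, 7.37 and 7.42 with OLR1 siRNA, against 7.67, 7.59 and 7.67 with scramble siRNA. The OLR1 siRNA arrays lay below the scramble arrays in both treatments. With OLR1 siRNA, CRELD2 was 1.22-fold lower in UV-PAPC cells (-0.29, 95% interval -0.44 to -0.14, limma adjusted p = 0.0121), a call kept in all 21 alternatives. In untreated cells it fell 1.18-fold (-0.23, -0.38 to -0.09, adjusted p = 0.0421), a call lost in 8 of 21 alternatives, among them each untreated array left out in turn and scramble UV-PAPC replicate 1 left out (adjusted p up to 0.143).

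Of the sensors, EIF2AK3 fell with OLR1 siRNA, by 0.28 on the log2 scale in UV-PAPC cells (adjusted p = 0.0210) and by 0.25 in untreated cells (adjusted p = 0.04995, a value at the threshold). The array values given above did not overlap in either treatment. The untreated call was lost in 15 of 21 alternatives (adjusted p up to 0.172), among them without any scramble untreated array, OLR1 siRNA untreated replicate 1 or 3, scramble UV-PAPC replicate 1 or any OLR1 siRNA UV-PAPC array, and the UV-PAPC call in 4, without replicate 1 or 2 of scramble or replicate 1 or 3 of OLR1 siRNA (adjusted p up to 0.0788). XBP1 fell by 0.21 in UV-PAPC cells (8.95 to 8.99 with OLR1 siRNA, against 9.16 to 9.25 with scramble siRNA, limma adjusted p = 0.0463), and this call was lost in 13 of 21 alternatives (adjusted p up to 0.124), among them without any single UV-PAPC array, any scramble untreated array or OLR1 siRNA untreated replicate 1. In untreated cells XBP1 was at -0.17 (adjusted p = 0.129). ERN1 was at -0.08 in UV-PAPC cells and 0.01 in untreated cells, ATF6 at 0.11 and 0.06, and CREB3L2 at -0.18 and -0.20 (adjusted p = 0.114 and 0.0937).

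The mannosidase-like members EDEM1 and EDEM2 ran the other way in UV-PAPC cells. The related EDEM3, which is not a member, fell with OLR1 siRNA in untreated cells (-0.48). EDEM1 had 7.78, 7.60 and 7.67 with OLR1 siRNA and UV-PAPC, against 7.44, 7.36 and 7.22 with scramble siRNA and UV-PAPC. Untreated, it had 7.68, 7.78 and 7.57 with OLR1 siRNA, against 7.58, 7.32 and 7.32 with scramble siRNA. The groups stood apart with UV-PAPC and overlapped untreated. With OLR1 siRNA, EDEM1 was 1.27-fold higher in UV-PAPC cells (0.34, 95% interval 0.15 to 0.53, limma adjusted p = 0.0193). That call was lost without scramble UV-PAPC replicate 3 or OLR1 siRNA UV-PAPC replicate 1 (adjusted p up to 0.0920). In untreated cells EDEM1 was at 0.27 (adjusted p = 0.0713). The untreated value passed in 5 of 21 alternatives, trend and robust eBayes, array weights, genes above the median signal, the block on replicate numbers and without scramble untreated replicate 1 (0.21 to 0.36 over all 21).

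EDEM2 had 7.33, 7.42 and 7.41 with OLR1 siRNA and UV-PAPC, against 7.02, 7.27 and 6.98 with scramble siRNA and UV-PAPC. Untreated, it had 7.43, 7.23 and 7.22 with OLR1 siRNA, against 7.17, 7.25 and 7.04 with scramble siRNA. As for EDEM1, the groups overlapped in untreated cells alone. With OLR1 siRNA, EDEM2 was higher by 0.29 in UV-PAPC cells (95% interval 0.11 to 0.48, limma adjusted p = 0.0383). That call was lost in 7 of 21 alternatives, among them without scramble UV-PAPC replicate 1 or 3 or any OLR1 siRNA UV-PAPC array (adjusted p up to 0.150). Untreated it was at 0.14.

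The remaining members did not pass with OLR1 siRNA. HSPA5 was at -0.17 in UV-PAPC cells (adjusted p = 0.109) and -0.09 untreated, and passed in UV-PAPC cells under 3 of 21 alternatives. HSP90B1 was at -0.05 and -0.03, DNAJB9 at 0.01 and 0.06, and the other J-domain genes lay between -0.12 and 0.11 over both treatments. CALR and CANX lay between -0.07 and 0.05, and PDIA4, PDIA6, P4HB and ERO1B between -0.17 and 0.10. MANF was at -0.11 in UV-PAPC cells and -0.07 untreated. SEC24D was at -0.22 and -0.21, WFS1 at -0.14 and -0.17, and SEC61A1, SEC61B and SSR1 lay between -0.04 and 0.10. SYVN1, SEL1L and the derlins lay between -0.17 and 0.13.

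In untreated cells the arrays of 12 members lay wholly below with OLR1 siRNA and those of 0 wholly above, where 13.7% of all genes lay below and 15.0% above. In UV-PAPC cells 12 lay wholly below and 3 wholly above, where 14.1% of all genes lay below and 16.6% above. The median member change was -0.03 in UV-PAPC cells (20 of 34 negative) and -0.06 untreated (24 of 34 negative), against -0.01 and 0.00 over all genes. These contrasts share no array. Of the members 26 had the same sign in both, which is 76.5% of them against 70.7% of all genes, and Pearson's r across genes was 0.867 for members and 0.718 for all genes.

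The OLR1 siRNA contrast was also tallied by whether the window held an exact match to ERSE or ERSE-II, leaving near matches and the other motifs aside. In UV-PAPC cells 5 of 11 members with either element fell and 0 rose, with a median of -0.17 and 9 of 11 negative. Of 20 members with a window but neither element (DNAJC10, with its UPRE core, among them), 1 fell (EIF2AK3) and 2 rose (EDEM1 and EDEM2), with a median of 0.03 and 9 of 20 negative. In untreated cells 3 of 11 with either element fell (median -0.09) and 1 of 20 with neither (median -0.04). Taken alone, the 8 members with ERSE held 2 that were lower with OLR1 siRNA in UV-PAPC cells (median -0.04) and 1 in untreated cells (median -0.05). The 3 members with ERSE-II, HYOU1, SDF2L1 and HERPUD1, were all lower with OLR1 siRNA in UV-PAPC cells. Over all genes 4.56% fell and 7.94% rose in UV-PAPC cells and 4.42% fell untreated, and the counts among the 20 lie near those shares. The 3 members without a window (SEC24D, DERL1 and DERL3) did not pass in either. These are counts over members whose values were already known, with no test of the difference. HSP90B1, CALR, CANX, PDIA6 and ERO1B hold ERSE and lay between -0.07 and 0.08. With UV-PAPC as the contrast, the 11 members with either element held 1 call in each background, HERPUD1. The 20 with neither also held 1 in each, DNAJB9. Over all genes 3.46% rose with UV-PAPC in OLR1 siRNA cells and 2.67% in scramble cells.

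**Figure D4:**
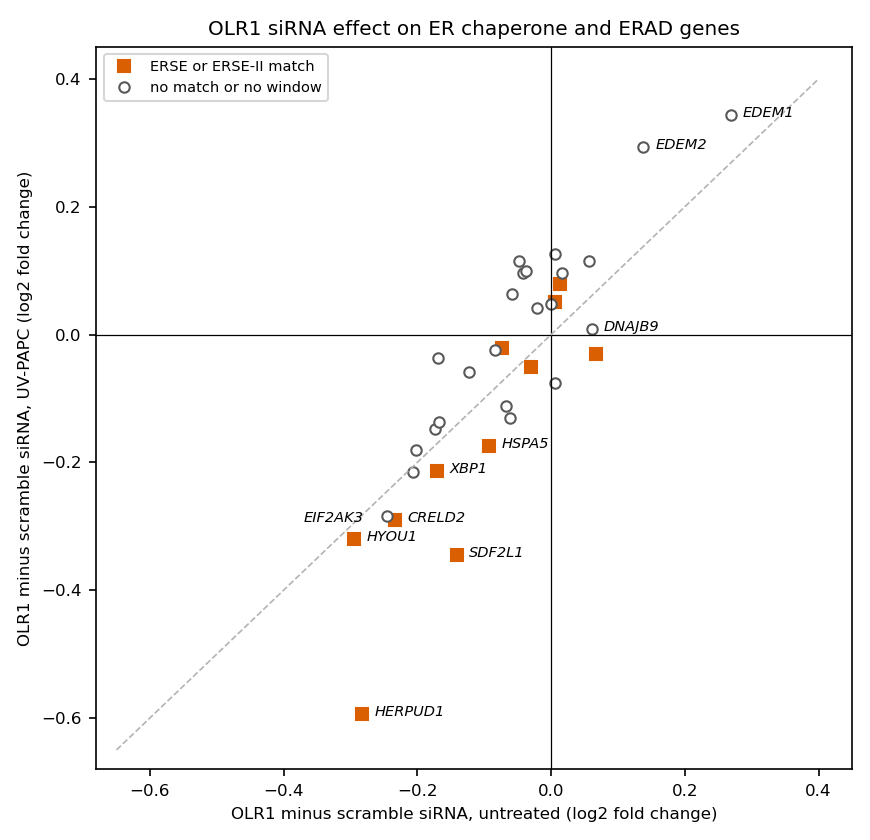
Log2 fold change of each of the 34 members with OLR1 siRNA, in untreated cells (x axis) and in UV-PAPC cells (y axis); squares have an ERSE or ERSE-II match in the promoter window, circles have neither element or no window, and the dashed line marks equal values. HERPUD1 lies farthest below (-0.59 in UV-PAPC cells and -0.28 in untreated cells), and EDEM1 lies farthest up and right (0.34 and 0.27).

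In the wider list of 99 ER genes, OLR1 siRNA raised 7 and lowered 1 in UV-PAPC cells (median 0.06) and raised 3 and lowered 3 in untreated cells (median 0.01). These are 7.07% and 1.01% of the list in UV-PAPC cells, against 7.94% and 4.56% of all genes. In untreated cells they are 3.03% each way, against 5.29% and 4.42%, so no share exceeded that of all genes. SPCS3, a subunit of the signal peptidase, fell in both (-0.41 in UV-PAPC cells and -0.61 in untreated cells). EDEM3, related to EDEM1, fell in untreated cells (-0.48), as did HM13, the signal peptide peptidase (-0.23). RNF139, a ubiquitin ligase of the ER membrane, rose in both (0.34 and 0.30), as did SUMF2 (0.27 and 0.25). HSPA13 rose in UV-PAPC cells (0.33) and ERP29, an ER folding protein, in untreated cells (0.28). Of the translocation and glycosylation genes, ALG5 (0.34) and SRPRA (0.30) rose in UV-PAPC cells, as did MARCHF6 (0.285) and TMBIM6 (0.22) of other parts of the list. Of the 33 ATF4 genes, 6 fell and 1 rose in UV-PAPC cells, with CHAC1, which degrades glutathione, at -0.81, DDIT4, an inhibitor of mTOR signalling, at -0.46 and STC2, a secreted glycoprotein, at -0.39. In untreated cells 5 fell and 2 rose (CTH, 0.43, and MTHFD2, 0.40), with SLC7A11, a cystine importer subunit, at -0.57 and TRIB3, a pseudokinase, at -0.45. With OLR1 siRNA 18.2% of this list fell and 3.03% rose in UV-PAPC cells, and 15.2% fell and 6.06% rose in untreated cells. Of 24 cytosolic heat shock genes, OLR1 siRNA lowered 12.5% and raised 8.33% in UV-PAPC cells, and lowered 20.8% and raised 4.17% in untreated cells. DNAJB6 fell most among them (-0.82 in UV-PAPC cells and -1.03 in untreated cells). The shares of all genes are those given above. Differences between the lists were not tested.

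The last comparison asks whether OLR1 siRNA altered the UV-PAPC response itself, as the response with OLR1 siRNA minus the response with scramble siRNA. No member and no gene passed (0% of all genes, limma), where 1004 of 18417 genes and 1 of 34 members had an unadjusted p under 0.05. That member was HERPUD1, whose response was 0.55 in OLR1 siRNA cells and 0.86 in scramble cells, a difference of -0.31 (95% interval -0.54 to -0.08, adjusted p = 0.889). The other differences ran from -0.20 (SDF2L1) to 0.16 (DNAJC3), with a median over all 34 of 0.04. For DNAJB9 the difference was -0.05. For 33 of 34 members the interval lay within 0.5 log2 units of 0, with a median standard error of 0.101. These intervals were not adjusted for the number of genes, and that of HERPUD1 excluded 0 although the gene did not pass. With 3 arrays a group, differences of that size or smaller could thus go uncalled.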

How the data were processed

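The values were the deposited log2 signals per probe set, which, per the submitters' processing notes, the authors made by RMA (Affymetrix Expression Console, version 1.3.1.187). Per the labels, 100 ng of total RNA were amplified and biotin-labelled. Not given in the sources used here are the RMA settings, the siRNA sequences, the length of the UV-PAPC exposure and the probe positions. RMA tends to compress large fold changes. The table held 33297 entries, of which 19460 carried 1 symbol, 1754 several and 12083 none in a platform annotation that can be old. Of those with 1 symbol, 19429 matched current symbols by Entrez number, which changed 0. Each gene kept its probe set of highest mean signal. Of the members only P4HB had more than 1 probe set, and its second gave log2 fold changes between -0.04 and 0.03 in the 4 comparisons of groups.

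A model of the 4 group means over the 12 arrays was fitted in limma (version 3.58.1, R version 4.3.3; default eBayes, two-sided tests, 8 residual degrees of freedom and a prior of 7.66), with Benjamini-Hochberg adjustment within each of 5 comparisons over all 18417 genes at 0.05. The fit was tested on simulated data. No label says whether replicates came from separate cultures. The p-values therefore reflect just the spread among these samples, possibly technical, and precision is limited by how many arrays there are. The members and lists were chosen with earlier results of these data known. Values on every array are given for members past the threshold in any comparison and for HSPA5, HSP90B1, ERN1, EIF2AK3, ATF6 and XBP1. From the other lists up to 5 genes per list and comparison are named, taken from the largest change down among those past the threshold, with ATF4, DDIT3, PPP1R15A, ERO1A, SERPINH1 and OLR1 whatever their result.

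Promoter windows came from RefSeq (GRCh38.p14) and were searched on both strands. Where a gene had several windows, a match in any of them counted. Alternatives changed the eBayes prior (trend and robust), the array weights, the filter on low signal (the median), the treatment of several probe sets (their mean), the scaling (median centring, quantile, cyclic loess) or the arrays fitted (those compared, or all but 1), or added the replicate number as a block. Python 3.11.15 with matplotlib 3.10.9 drew the figures.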

Additional observations from a re-analysis of the deposited data

How the results depend on the processing

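No log2 fold change of a member named with values on every array changed the direction of a call under the alternatives, and the difference of responses gave 0 members under each of them. With UV-PAPC in OLR1 siRNA cells, 2 members passed as deposited, against 1 with the 6 arrays of the comparison alone, 1 above the median signal (a filter that removes DNAJB9, ERO1B and DERL3) and 1 to 2 with an array left out. With UV-PAPC in scramble cells, 2 passed, 4 with trend and robust eBayes, 5 with array weights (HSPA5, ERO1B and EIF2AK3 added), and 1 to 3 with an array left out. With OLR1 siRNA and UV-PAPC, 8 passed, against 14 with cyclic loess and 4 to 8 with an array left out. With OLR1 siRNA in untreated cells, 4 passed, against 2 with arrays centred on their medians and 0 to 4 with an array left out. The cause of these shifts was not tested. The rescalings moved the median of all genes by at most 0.032 log2 units. The count of all genes past the threshold moved by more than 1.5 times in scramble cells with UV-PAPC without scramble untreated replicate 1 (868, against 1347). With OLR1 siRNA in untreated cells it was 1113 without scramble untreated replicate 2, 1158 without scramble untreated replicate 3 and 1101 without OLR1 siRNA untreated replicate 2, against 1789. With OLR1 siRNA and UV-PAPC it was 1372 without scramble UV-PAPC replicate 3 and 1267 without OLR1 siRNA UV-PAPC replicate 1, against 2302.

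The arrays gave no clear sign that the replicate numbers pair the samples, though so few arrays cannot exclude it. Deviations from group means correlated at -0.221 to 0.263 between arrays with the same number (over 0.1 in 6 of 18 pairs) and at -0.260 to 0.266 between arrays with different numbers, and 3 of 12 arrays correlated best with their own number. With the replicate block, 2 members passed for UV-PAPC in OLR1 siRNA cells, 2 for UV-PAPC in scramble cells, 7 for OLR1 siRNA with UV-PAPC, 4 for OLR1 siRNA untreated and 0 for the difference of responses. The 7 lack XBP1, and the 4 hold EDEM1, as higher, in place of EIF2AK3.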
